A study of Mus musculus with 6 samples.

Results

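MHC class I antigen presentation was followed through 9 listed mouse genes: the heavy chain genes H2-K1, H2-D1 and H2-T23, the light chain gene B2m, the peptide transporter genes Tap1 and Tap2, the tapasin gene Tapbp, the peptide-trimming gene Erap1 and the regulator gene Nlrc5. They were matched by symbol to the probe sets of an Affymetrix expression array, and 8 of the 9 had a probe set annotated to that symbol alone, out of 18193 such genes on the array. Both probe sets of H2-T23 also carry the symbol of a neighbouring pseudogene, so H2-T23 was not analysed here. Each gene was read from the brightest of its probe sets, by the mean of the 6 arrays, and its other probe sets served as a check.

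RNA came from NMuMG, a mouse mammary epithelial line that was immortalised from healthy tissue, and each of 3 groups had 2 arrays. Withdrawal cells received the cytokine TGF-β at 4 ng/ml for 11 days and were then kept without it for 13 days; TGF-β cells received 4 ng/ml for 11 days and were collected then; control cells received vehicle. Cells of every group were grown in DMEM with serum, antibiotics and insulin, and no genetic change is given for any of them. The 13 days without TGF-β are also 13 more days in culture, so withdrawal and time cannot be told apart, and the TGF-β and withdrawal differences from control rest on the same 2 control arrays. Separate cultures are not mentioned for arrays of 1 group, so p-values here reflect the spread of these samples alone, and it may be technical.

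A description in the labels names the cell state of the TGF-β and withdrawal arrays the other way round from their titles and treatments, and the groups here follow the titles and treatments. Tagln, an actin-binding gene that TGF-β is known to induce, stood at 6.97 and 6.82 in withdrawal cells, 12.69 and 12.61 in TGF-β cells and 6.89 and 6.92 in control cells on the log2 scale. Cdh1, which encodes the epithelial adhesion protein E-cadherin, stood at 11.80 and 11.79 in withdrawal cells, 8.37 and 8.25 in TGF-β cells and 11.99 and 11.89 in control cells. Both genes therefore set the TGF-β arrays apart from the withdrawal and control arrays, as the titles do. Tagln did not separate withdrawal from control arrays, and for Cdh1 these lay close together. Pearson's r over all probe sets was 0.998 within groups and 0.974 to 0.981 across them, and array medians were 5.77 to 5.79.

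Class I molecules carry short peptides from a cell's own proteins to its surface, where CD8+ T cells inspect them and natural killer cells sense their loss. Each molecule is a polymorphic heavy chain bound to beta-2 microglobulin. It is loaded in the endoplasmic reticulum by a complex in which the Tap1 and Tap2 transporter brings in peptides made by the proteasome, tapasin holds the empty molecule at the transporter, and the aminopeptidase Erap1 trims the peptides. Epithelial cells are known to transcribe class I genes at a basal level through NF-κB, interferon regulatory factors and a factor complex, containing RFX, CREB or ATF and NF-Y proteins, on the X and Y boxes of the promoter, to which Nlrc5 is recruited; interferons raise that level.

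The promoters of the genes that differed most are shown first, because they match the strings searched for such elements to different degrees. Each is the 180 bases before the start of the RefSeq gene on assembly GRCm38.p6, written 5′ to 3′ on the strand of the gene. Capitals mark matches on either strand to GGGGATTCC (a κB site), GAANNGAAA or GAAANNGAA (interferon response motifs, which can overlap each other), TGACG (the core of the X2 box) and CCAAT (the Y box). The motifs were chosen after these promoters had been read. H2-K1 lies at chr17:34000348-34000527 on the minus strand, H2-D1 at chr17:35262914-35263093 on the plus strand, B2m at chr2:122147507-122147686 on the plus strand and Tapbp at chr17:33919298-33919477 on the plus strand.
H2-K1: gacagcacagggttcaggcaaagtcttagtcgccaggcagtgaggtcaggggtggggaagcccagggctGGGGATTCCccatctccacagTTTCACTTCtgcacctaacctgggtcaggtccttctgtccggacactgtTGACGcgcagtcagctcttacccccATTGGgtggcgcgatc
H2-D1: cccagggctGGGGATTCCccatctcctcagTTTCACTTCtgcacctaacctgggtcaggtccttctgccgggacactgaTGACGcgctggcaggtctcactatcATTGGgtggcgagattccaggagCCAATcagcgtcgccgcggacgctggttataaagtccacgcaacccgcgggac
B2m: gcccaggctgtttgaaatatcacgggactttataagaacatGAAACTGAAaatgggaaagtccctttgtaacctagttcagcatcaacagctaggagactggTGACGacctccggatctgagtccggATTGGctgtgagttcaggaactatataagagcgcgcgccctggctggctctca
Tapbp: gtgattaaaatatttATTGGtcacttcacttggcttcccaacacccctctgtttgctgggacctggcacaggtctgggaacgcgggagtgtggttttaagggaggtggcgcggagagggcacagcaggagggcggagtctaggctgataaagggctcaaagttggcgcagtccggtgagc

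In H2-K1 the κB site begins 111 bases before the RefSeq start, the interferon motif 90, the X2 core 41 and the Y box 16 bases before it. In H2-D1 the same elements begin 171, 150, 101 and 76 bases before the start, in the same order. Over the 120 bases that could be laid side by side, 107 bases (89.2%) of the promoters of H2-K1 and H2-D1 were identical. In the 250 bases before the start of 27025 RefSeq genes, 0.218% held the κB site, 6.34% GAANNGAAA, 7.16% GAAANNGAA, 17.9% TGACG and 34.5% CCAAT. The κB site, GAANNGAAA, TGACG and CCAAT stood together in 3 of these promoters, those of H2-K1, H2-D1 and H2-Q7, another class I heavy chain gene. Because the strings were chosen after the printed promoters had been read, this count is no test of rarity. The B2m promoter has GAAANNGAA, TGACG and CCAAT and no match to GGGGATTCC, and the Tapbp promoter holds CCAAT alone of these motifs. Other spellings of a κB site were not searched, so whether B2m or Tapbp has one was not tested. Of the 9 listed genes 7 had an entry in the promoter table, and a match is a description of the letters only.

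The heavy chain genes H2-K1 and H2-D1 and the light chain gene B2m were all higher under TGF-β, and all stayed above control after withdrawal. H2-K1 and H2-D1 encode the classical class I heavy chains that present peptide to T cells. On the log2 scale, H2-K1 (probe set 1451931_x_at) read 10.69 and 10.72 in withdrawal cells, 10.57 and 10.50 in TGF-β cells and 8.61 and 8.77 in control cells. The 4 arrays of withdrawal and TGF-β cells lay well above the 2 control arrays, and the withdrawal arrays lay just above the TGF-β arrays. The difference of TGF-β from control was 1.85 (SE 0.069, adjusted p = 1.55e-05, limma with Benjamini-Hochberg adjustment over all 18193 genes), a fold of 3.61. Withdrawal cells were higher than control cells by 2.01 (adjusted p = 8.65e-06), a fold of 4.03. Between withdrawal and TGF-β cells the H2-K1 difference was 0.16 (95% confidence interval -0.0074 to 0.33, adjusted p = 0.112). The mean of the H2-K1 probe sets gave smaller differences, 0.87 for withdrawal and 0.81 for TGF-β against control, which passed as well.

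H2-D1 (probe set 1425545_x_at) read 11.29 and 11.29 in withdrawal cells, 11.15 and 11.14 in TGF-β cells and 9.48 and 9.52 in control cells. As for H2-K1, no treated array overlapped a control array. TGF-β cells were higher than control cells by 1.64 (SE 0.049, adjusted p = 7.24e-06), a fold of 3.12, and withdrawal cells by 1.79 (adjusted p = 4.92e-06), a fold of 3.46. Withdrawal and TGF-β cells differed by 0.15 (interval 0.030 to 0.27, adjusted p = 0.0513). Across the 3 groups the order of H2-D1 and of H2-K1 was withdrawal, TGF-β, control, and in both genes the step between the upper pair did not pass the test. That step passed for H2-K1 and H2-D1 when the arrays were normalised by cyclic loess or the spread was modelled with an intensity trend, and for H2-D1 also with repeated quantile normalisation or without the dimmest 40% of genes. Scaling to the hybridisation controls made it -0.056 for H2-K1 and -0.069 for H2-D1.

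B2m (probe set 1452428_a_at), which encodes the light chain shared by class I molecules, read 13.62 and 13.67 in withdrawal cells, 13.44 and 13.42 in TGF-β cells and 12.78 and 12.80 in control cells. Its 3 groups did not overlap. TGF-β cells were above control cells by 0.64 (SE 0.050, adjusted p = 2.56e-04), a fold of 1.56, and withdrawal cells by 0.86 (adjusted p = 4.63e-05), a fold of 1.81. Withdrawal cells exceeded TGF-β cells by 0.22 (adjusted p = 0.0147), a step lost without TGF-β array 1 (adjusted p = 0.0535), TGF-β array 2 (0.0708) or withdrawal array 2 (0.060). The same step was -0.0011 when scaled to hybridisation controls (adjusted p = 0.995) and did not pass when scaled to poly-A controls (adjusted p = 0.108).

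**Figure D1:**
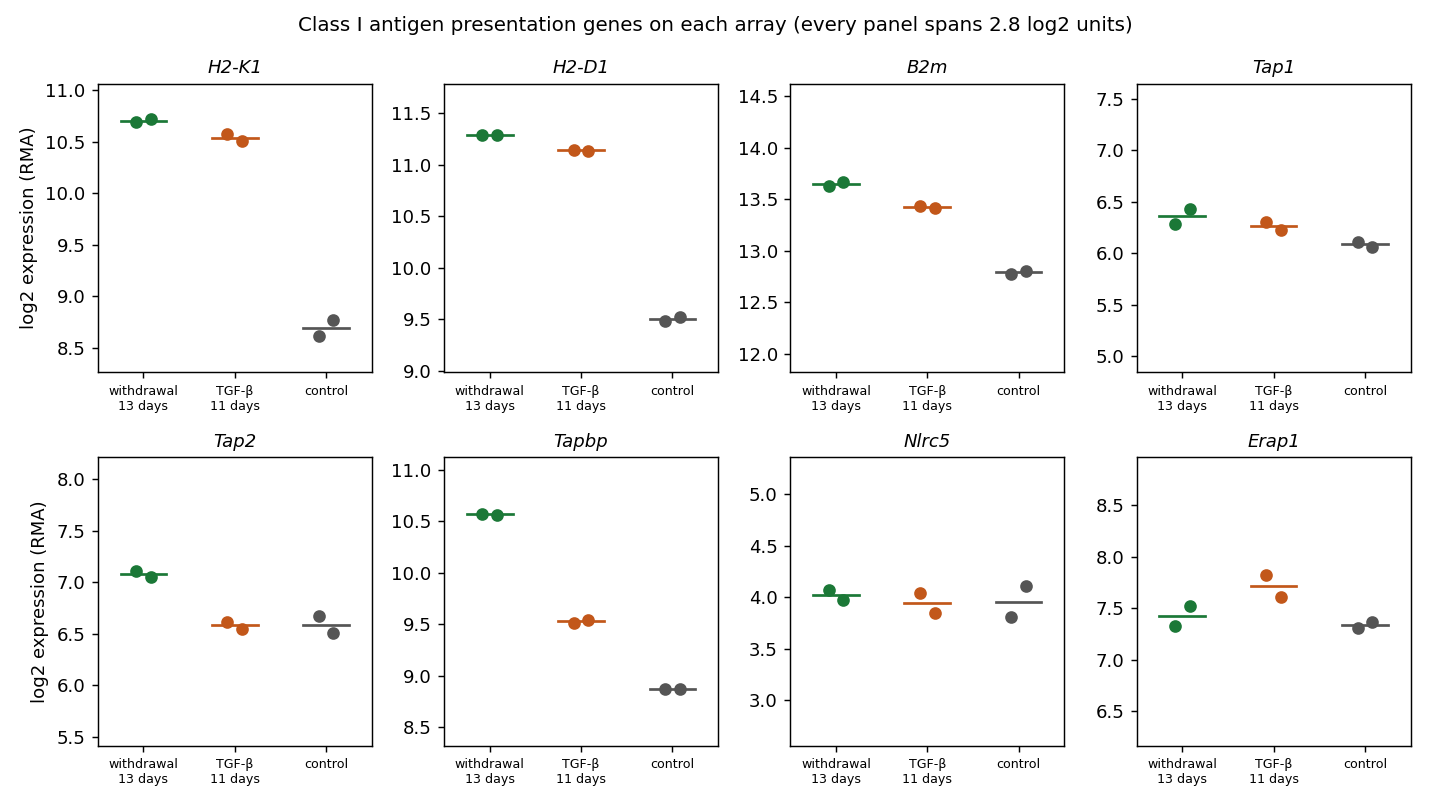
Log2 expression of the 8 genes on each array, with points for arrays and a line for the mean of each group (withdrawal, TGF-β and control, 2 arrays each); every panel spans 2.8 log2 units. H2-K1, H2-D1 and B2m are high in withdrawal and TGF-β cells and low in control cells, Tapbp steps down in 3 levels, Tap2 is high in withdrawal cells, and Erap1 is highest in TGF-β cells.

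The transporter genes followed other patterns. Tap2 (probe set 1453913_a_at) read 7.11 and 7.05 in withdrawal cells, 6.61 and 6.55 in TGF-β cells and 6.67 and 6.51 in control cells. Its withdrawal arrays lay above all others, and the TGF-β and control arrays overlapped. Tap2 rose in withdrawal cells by 0.50 over TGF-β cells (adjusted p = 0.00191) and by 0.49 over control cells (adjusted p = 0.00193), whereas the difference of TGF-β from control was -0.0069 (adjusted p = 0.958). Scaling to the hybridisation controls ended both Tap2 calls, at 0.28 over TGF-β cells (adjusted p = 0.0620) and 0.12 over control cells (adjusted p = 0.419), and scaling to poly-A controls ended the second, at 0.35 (adjusted p = 0.109).

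Tap1 (probe set 1416016_at), the partner subunit, read 6.29 and 6.43 in withdrawal cells, 6.30 and 6.23 in TGF-β cells and 6.11 and 6.07 in control cells. The withdrawal and TGF-β arrays overlapped, and both groups lay above the control arrays. Tap1 was higher in withdrawal than in control cells by 0.27 (adjusted p = 0.0188), a call lost without control array 1 (adjusted p = 0.0611), control array 2 (0.0941) or withdrawal array 2 (0.075). The Tap1 difference was 0.18 between TGF-β and control cells (adjusted p = 0.0980) and 0.09 between withdrawal and TGF-β cells (adjusted p = 0.326). The mean of the Tap1 probe sets gave 0.12 for withdrawal against control (adjusted p = 0.172), and scaling gave 0.13 (poly-A) and -0.10 (hybridisation).

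Tapbp rose in 2 steps, and the step on withdrawal was the wider. Tapbp (probe set 1421812_at) encodes tapasin, which bridges class I molecules to the transporter. It read 10.57 and 10.56 in withdrawal cells, 9.51 and 9.54 in TGF-β cells and 8.87 and 8.87 in control cells, with no overlap between any pair of groups. TGF-β cells were above control cells by 0.66 (SE 0.048, adjusted p = 2.03e-04), a fold of 1.58. Withdrawal cells were above TGF-β cells by 1.04 (adjusted p = 2.37e-05), a fold of 2.05, and above control cells by 1.70 (adjusted p = 5.56e-06), a fold of 3.24.

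Erap1 (probe set 1416942_at), the trimming aminopeptidase, had its highest values under TGF-β: 7.33 and 7.52 in withdrawal cells, 7.82 and 7.61 in TGF-β cells and 7.31 and 7.36 in control cells. The withdrawal arrays overlapped the control arrays and lay below the TGF-β arrays. Erap1 was higher in TGF-β than in control cells by 0.38 (adjusted p = 0.0279), a call lost without control array 1 (adjusted p = 0.127), control array 2 (0.0907) or TGF-β array 1 (0.115), and with hybridisation scaling (0.22, adjusted p = 0.204). Withdrawal differed from TGF-β by -0.29 (adjusted p = 0.0532) and from control by 0.09 (adjusted p = 0.511). Erap1 was called lower in withdrawal than in TGF-β cells under 6 of the alternatives, among them repeated quantile normalisation (adjusted p = 0.0208), the intensity trend (0.0132) and hybridisation scaling (-0.51, adjusted p = 5.34e-04), while the mean of its probe sets gave -0.16 (adjusted p = 0.132).

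Nlrc5 (probe set 1437176_at), the transactivator that acts at class I promoters, read 4.07 and 3.97 in withdrawal cells, 4.04 and 3.85 in TGF-β cells and 3.81 and 4.11 in control cells. The groups overlapped, and its mean level stood at percentile 9.67 of all genes measured, a range in which the deposited values do not separate signal from background. None of its 3 differences passed limma's test, with adjusted p of 0.943 for TGF-β against control, 0.650 for withdrawal against TGF-β and 0.720 for withdrawal against control, and 0 of the 3 had an unadjusted p under 0.05.

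**Figure D2:**
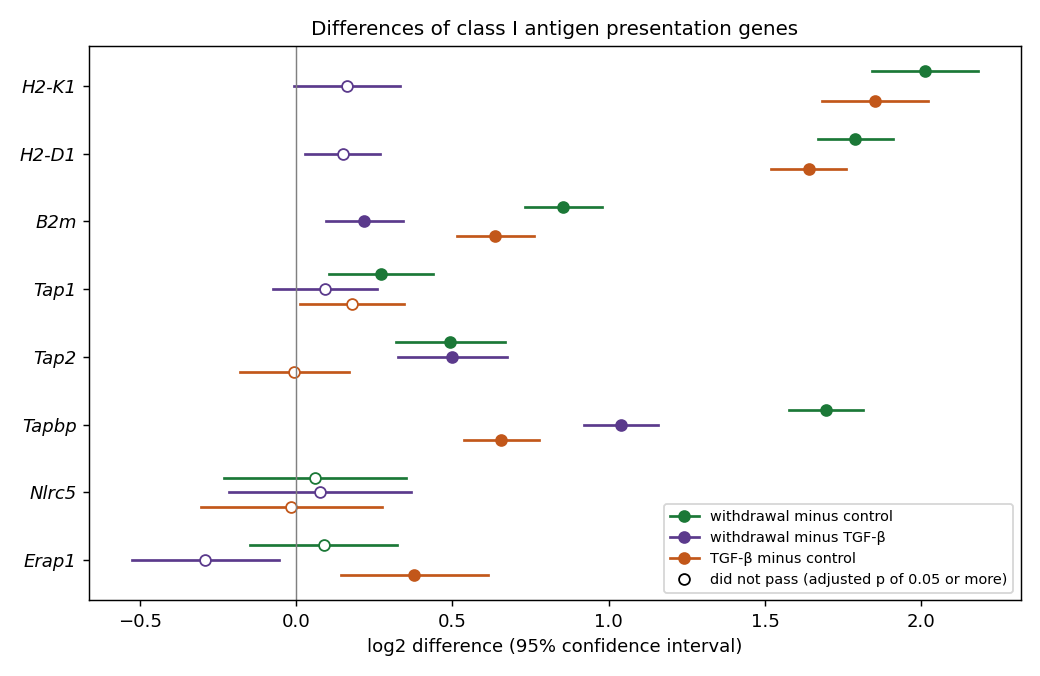
Log2 differences of the 8 genes with 95% confidence intervals from limma, for withdrawal minus control, withdrawal minus TGF-β and TGF-β minus control; open points did not pass at an adjusted p of 0.05. H2-K1 and H2-D1 have wide TGF-β differences and a small step on withdrawal, while Tapbp and Tap2 have their wider step on withdrawal.

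Counted over the 8 genes, 6 were higher in withdrawal than in control cells and 0 were lower by limma (6 and 0 at an unadjusted p under 0.05), where 21.7% of all genes were called higher and 23.6% lower. The median of the 8 differences was 0.67, against -0.04 for all genes. Under TGF-β, 5 genes were higher than in control cells and 0 lower (6 and 0 unadjusted), with 15.0% of all genes called higher and 17.5% lower; the median was 0.51 against -0.01. Between withdrawal and TGF-β cells, 3 genes were higher and 0 lower (4 and 1 unadjusted), with 21.8% of all genes called higher and 22.1% lower; the median was 0.16 against -0.03. The 2 arrays of each group did not overlap for 6 of the 8 genes in each comparison, against 70.5% of all genes for withdrawal against control, 64.9% for TGF-β against control and 69.0% for withdrawal against TGF-β.

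Quantile normalisation removes a shift shared by all genes, so the differences are relative to the other genes on the array. Scaling to control RNAs was applied to the deposited values, which were already quantile normalised, so it does not replace that step. With arrays shifted to equal levels of the poly-A control RNAs added before labelling, the median of all genes moved to -0.30 under TGF-β. Of the 8 genes 2 stayed called higher there, H2-K1 and H2-D1, at 1.56 and 1.35. On that scale B2m read 0.35 (adjusted p = 0.0977), Tapbp 0.37 (adjusted p = 0.0814) and Erap1 0.09 (adjusted p = 0.663). For withdrawal against control, the all-gene median became -0.18 with poly-A scaling and -0.42 with scaling to the hybridisation controls, and 4 of the 8 genes stayed higher with either. In bulk RNA, fewer cells with a transcript and less of it in each cell cannot be told apart.

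Class I genes are close copies of one another, and the array's probe sets mark this: a name ending in x_at flags probes that can match other genes as well. All 4 probe sets of H2-K1 and 7 of the 9 of H2-D1 end so. Over the 25 probe sets of the 8 genes, 18 were higher and 1 lower in withdrawal than in control cells, where 19.4% of all probe sets were called higher, 21.4% lower and 40.8% in either direction. For TGF-β against control, 16 were higher and 1 lower (13.3% and 14.0% of all probe sets, 27.2% together), and for withdrawal against TGF-β, 5 were higher and 1 lower (19.0% and 20.6%, 39.6% together).

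The probe sets of a heavy chain gene did not move equally. For TGF-β against control, the other probe sets of H2-K1 gave 0.66, 0.46 and 0.27, the last not passing (adjusted p = 0.190), beside 1.85 from the brightest set. For withdrawal against control they gave 0.61, 0.52 and 0.35, the last not passing (adjusted p = 0.0763), beside 2.01. For withdrawal against TGF-β they gave -0.053, 0.058 and 0.080, none passing, so the order of these groups for H2-K1 depends on the probe set. For H2-D1, 8 of 9 sets were higher, and the differences ran from -0.28 to 2.14. One H2-D1 set whose name carries no such mark, 1426324_at, was higher by 2.00 in TGF-β than in control cells and by 1.69 in withdrawal than in control cells, and was lower in withdrawal than in TGF-β cells by 0.31 (difference -0.31, adjusted p = 0.00589). The brightest H2-D1 set gave 0.15 for that last comparison, so the order of withdrawal and TGF-β cells for H2-D1 depends on the probe set as well. The remaining unmarked H2-D1 set, 1451934_at, was dim, with differences of -0.34 for withdrawal against control (adjusted p = 0.0235) and -0.28 for TGF-β against control (adjusted p = 0.0635).

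The second B2m set gave 0.61 for TGF-β against control, 0.27 for withdrawal against TGF-β and 0.88 for withdrawal against control, and all passed. The second Tapbp set gave 0.26, 1.01 and 1.26 in the same comparisons, and all passed. One Tap1 set, 1448177_at, at percentile 29.1 of probe sets, was lower under TGF-β by 0.32 (difference -0.32, adjusted p = 0.0194), against 0.18 from the brightest Tap1 set. For withdrawal against control it gave -0.18 (adjusted p = 0.0933). Tap1 set 1449803_x_at, at percentile 13.4, gave 0.24 in both comparisons (adjusted p = 0.0654 and 0.0454). The dimmest Tap1 set, 1420274_at, at percentile 5.35, gave 0.06 and 0.13, neither passing. No Tap1 set passed for withdrawal against TGF-β. The second Erap1 set gave 0.27 for TGF-β against control (adjusted p = 0.159), -0.025 for withdrawal against TGF-β and 0.24 for withdrawal against control, and none of these passed (0 of 3 at an unadjusted p under 0.05, limma). Tap2 and Nlrc5 have 1 probe set each.

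**Figure D3:**
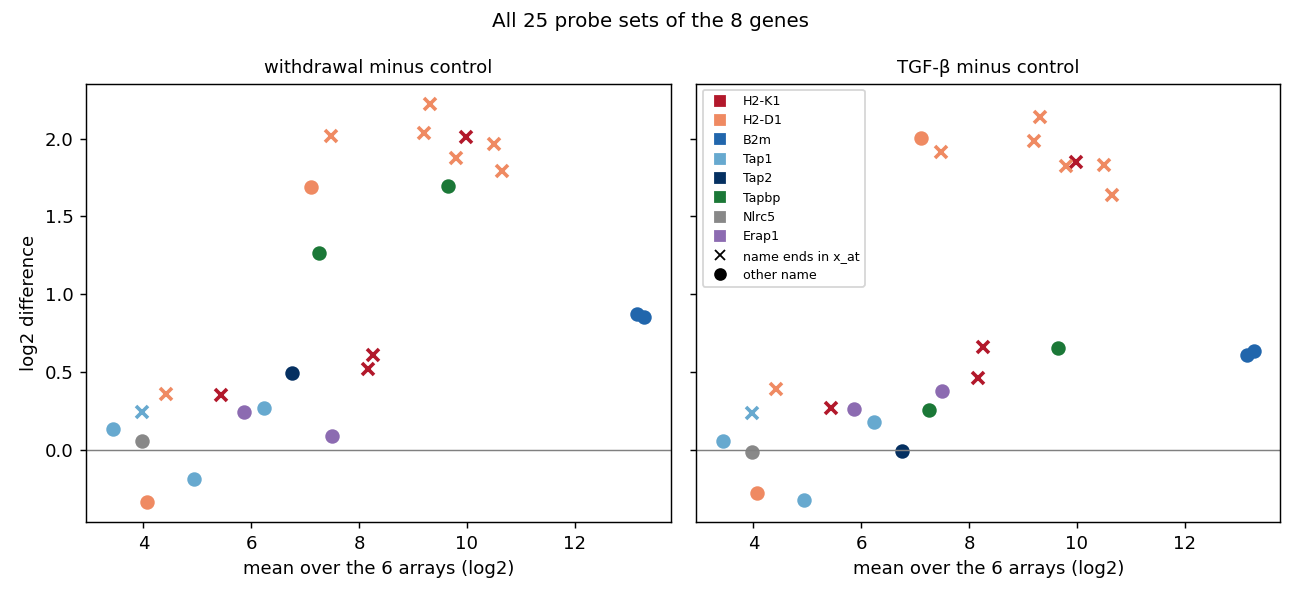
Log2 difference of each of the 25 probe sets against its mean over the 6 arrays (log2), for withdrawal minus control and for TGF-β minus control; colours mark genes and crosses mark names ending in x_at. The bright H2-D1 sets lie near 2 in both panels, the H2-K1 sets spread widely, and both Tapbp sets lie higher in withdrawal minus control.

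Beyond these genes, the array held 14 of 27 listed further class I heavy chain genes, both classical-like and non-classical, with 1 symbol. Of the 14, 5 were higher and 0 lower in withdrawal than in control cells (5 and 0 at an unadjusted p under 0.05), 4 were higher and 1 lower in TGF-β than in control cells, and 3 were higher and 0 lower in withdrawal than in TGF-β cells (3 and 3 unadjusted). In the same order, 21.7% of all genes were called higher and 23.6% lower, 15.0% and 17.5%, and 21.8% and 22.1%. Their median was 0.07, 0.15 and -0.01 for the 14 genes in these comparisons. Scaling to poly-A controls turned the first 2 medians to -0.07 and -0.14 and the third to 0.14, and scaling to hybridisation controls made them -0.31, -0.01 and -0.23, with 5 higher and 8 lower, 3 and 2, and 3 and 5. Over all 18193 genes, hybridisation scaling called 1655 higher and 12634 lower, 1319 and 4408, and 2146 and 7772. The genes that passed are known for different roles.

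H2-M3, which presents formylated peptides, read 9.12 and 9.13 in withdrawal cells, 9.07 and 9.01 in TGF-β cells and 7.67 and 7.71 in control cells. That is the profile of H2-K1, with 1.34 for TGF-β against control (adjusted p = 1.74e-05) and 1.43 for withdrawal against control (adjusted p = 9.79e-06). Cd1d1, which presents lipids to natural killer T cells, was higher by 1.10 under TGF-β and by 0.93 after withdrawal. Fcgrt, the heavy chain of the neonatal Fc receptor, a class I fold that binds antibody and not peptide, read 9.31 and 9.29 in withdrawal cells, 6.85 and 6.93 in TGF-β cells and 6.34 and 6.54 in control cells. It was higher in withdrawal than in TGF-β cells by 2.41 (adjusted p = 8.83e-06), and was higher in withdrawal than in control cells by 2.86. Mr1, which presents vitamin B metabolites, rose by 0.73 under TGF-β, and was higher in withdrawal cells than in TGF-β cells by 0.77 and than in control cells by 1.51. Hfe, a regulator of iron uptake, was lower in TGF-β than in control cells, at -0.45, and higher in withdrawal than in control cells by 0.96.

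Peptide supply by the proteasome changed unevenly. Of 5 measured genes for the immunoproteasome and its activator, 2 were higher and 1 lower in withdrawal than in control cells, 2 higher and 0 lower in TGF-β than in control cells (2 and 0 unadjusted, limma), and 1 higher and 2 lower in withdrawal than in TGF-β cells. The matching shares of all genes were 21.7% higher and 23.6% lower, 15.0% and 17.5%, and 21.8% and 22.1%. Psme1, a subunit of the activator that opens the proteasome for peptide release, read 10.93 and 11.00 in withdrawal cells, 10.26 and 10.29 in TGF-β cells and 9.61 and 9.69 in control cells, with differences from control of 0.62 under TGF-β and 1.31 after withdrawal. Psmb10, a catalytic immunoproteasome subunit, was higher by 0.60 under TGF-β and by 0.31 after withdrawal, the second value turning to -0.066 when scaled to the hybridisation controls and not passing when scaled to poly-A controls (0.17, adjusted p = 0.464). Scaling to poly-A controls left 0 higher and 1 lower of the 5 genes under TGF-β, with Psme1 at 0.33 (adjusted p = 0.112) and Psmb10 at 0.31 (adjusted p = 0.141). That scaling called 818 of all 18193 genes higher and 5334 lower under TGF-β. The other catalytic subunits, Psmb8 and Psmb9, which lie beside Tap1 and Tap2 in the genome, differed by -0.06 (adjusted p = 0.680) and 0.09 (adjusted p = 0.582) between withdrawal and control cells. With hybridisation scaling both were called lower there, at -0.44 (adjusted p = 0.00187) and -0.29 (adjusted p = 0.0402). On that scale 1 of the 5 genes was higher and 3 lower, where 1655 of all 18193 genes were higher and 12634 lower. Psme3, a nuclear proteasome activator, was lower in withdrawal than in control cells, at -1.20. Of 3 constitutive catalytic subunits, 0 were higher and 2 lower in withdrawal than in control cells (0 and 2 unadjusted): Psmb6 at -0.27, a call lost with poly-A scaling (adjusted p = 0.0539), and Psmb7 at -0.60.

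The chaperones that assemble class I molecules parted from the genes above. Of 17 loading and trimming genes measured, 7 were higher and 3 lower in withdrawal than in control cells, 6 were higher and 2 lower in TGF-β than in control cells, and 4 were higher and 8 lower in withdrawal than in TGF-β cells. Their medians were -0.01, 0.13 and 0.04, and scaling to poly-A controls left 1 higher and 2 lower in the first comparison and 0 and 2 in the second. Scaling to hybridisation controls gave 0 higher and 9 lower, 2 and 2, and 1 and 8, with a median of -0.39 in the first. All genes had shares of 21.7% higher and 23.6% lower, 15.0% and 17.5%, and 21.8% and 22.1% before scaling. With poly-A scaling, all 18193 genes gave 1967 higher and 3730 lower in the first comparison and 818 and 5334 in the second. With hybridisation scaling they gave 1655 and 12634, 1319 and 4408, and 2146 and 7772, with a median of -0.42 in the first. Calreticulin (Calr), a lectin chaperone of the loading complex, read 12.59 and 12.51 in withdrawal cells, 12.97 and 12.96 in TGF-β cells and 12.40 and 12.46 in control cells. It was higher under TGF-β by 0.53 and lower after withdrawal than under TGF-β, at -0.41. The same course was seen in Pdia3, the disulphide isomerase bound to tapasin, with 0.24 and -0.37, and in Hspa5, a general chaperone of the endoplasmic reticulum, with 0.53 and -0.68; scaling to poly-A controls ended the TGF-β calls of Calr (0.24, adjusted p = 0.233) and Hspa5 (0.24, adjusted p = 0.234) and the calls against TGF-β of Calr (-0.27, adjusted p = 0.296) and Pdia3 (-0.22, adjusted p = 0.415). The first Pdia3 value became -0.045 on that scale, and its call was lost when any 1 of the 4 TGF-β and control arrays was left out (adjusted p of 0.0551 to 0.0769). Calnexin (Canx), which holds new heavy chains, and Tapbpl, which edits peptides as tapasin does, were higher in withdrawal than in control cells by 0.19 and 0.29, and both turned negative when scaled to the hybridisation controls. The Canx call was lost on leaving out any 1 array other than withdrawal 2 (adjusted p of 0.0536 to 0.139), and the Tapbpl call without control array 2 (adjusted p = 0.0828) or withdrawal array 1 (0.0708).

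Regulators of class I transcription split in direction, as did genes over the whole array. Of 25 measured, 10 were higher and 7 lower in withdrawal than in control cells, 9 were higher and 10 lower in TGF-β than in control cells, and 9 were higher and 7 lower in withdrawal than in TGF-β cells, with medians of 0.05, -0.08 and 0.03. Scaling to poly-A controls gave medians of -0.09, -0.37 and 0.18, with 6 higher and 8 lower, 1 and 12, and 8 and 2. Scaling to hybridisation controls gave -0.32, -0.24 and -0.19, with 6 and 14, 5 and 11, and 4 and 10. Among all genes, 21.7% were higher and 23.6% lower, 15.0% and 17.5%, and 21.8% and 22.1% before scaling. All 18193 genes gave 1967 higher and 3730 lower, 818 and 5334, and 3506 and 1500 with poly-A scaling. With hybridisation scaling they gave 1655 and 12634, 1319 and 4408, and 2146 and 7772. Rela, an NF-κB subunit, read 11.29 and 11.30 in withdrawal cells, 10.57 and 10.64 in TGF-β cells and 9.93 and 9.97 in control cells, a rise of 0.66 under TGF-β (0.37 when scaled to poly-A controls, adjusted p = 0.0826) and of 1.34 after withdrawal. Relb, another subunit, rose by 0.25 under TGF-β, which became -0.043 when scaled to poly-A controls, and by 1.12 after withdrawal; the TGF-β call was lost when any 1 of the 4 arrays compared was left out (adjusted p of 0.100 to 0.190). Tnfaip3, which encodes an inhibitor of NF-κB signalling that NF-κB induces, was higher by 0.28 under TGF-β (-0.0058 when scaled to poly-A controls; adjusted p = 0.0508 without control array 2) and lower after withdrawal than in control cells, at -0.99.

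Among factors of the X and Y boxes, Rfx5 was higher in withdrawal than in control cells by 0.46, whereas its partner Rfxap, at -1.38, and the NF-Y subunit Nfyb, at -1.25, were lower. The Rfx5 call was lost with either spike scaling (adjusted p of 0.157 and 0.584). Nfyb read 8.22 and 8.21 in withdrawal cells, 8.96 and 8.90 in TGF-β cells and 9.49 and 9.44 in control cells, a stepwise fall with no overlap. Irf1, an interferon regulatory factor that induces class I genes, was higher by 0.56 in TGF-β than in control cells and differed by 0.01 between withdrawal and control cells (adjusted p = 0.948). Irf9, the DNA-binding part of the interferon-induced ISGF3 complex, was higher by 0.58 under TGF-β and by 0.80 after withdrawal. Scaling to poly-A controls ended the TGF-β calls of Irf1 (0.27, adjusted p = 0.195) and Irf9 (0.29, adjusted p = 0.166).

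Interferon receptor and signalling genes were called in both directions, as were genes over the whole array. Of 21, 9 were higher and 6 lower in withdrawal than in control cells, 4 were higher and 6 lower in TGF-β than in control cells, and 9 were higher and 3 lower in withdrawal than in TGF-β cells. Scaling to poly-A controls gave 5 and 7, 0 and 7, and 8 and 2, and scaling to hybridisation controls gave 5 and 12, 1 and 6, and 3 and 8. Unscaled, 21.7% of all genes were higher and 23.6% lower, 15.0% and 17.5%, and 21.8% and 22.1%. Of all 18193 genes, poly-A scaling called 1967 higher and 3730 lower, 818 and 5334, and 3506 and 1500. Hybridisation scaling called 1655 and 12634, 1319 and 4408, and 2146 and 7772. The interferon-gamma receptor genes parted: Ifngr2 was higher in withdrawal than in control cells by 1.04 and Ifngr1 was lower, at -0.63. Ifnar1, a chain of the type I interferon receptor, was higher by 1.04 in withdrawal than in control cells, and the receptor kinase gene Jak2 was lower, at -0.86.

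Of 41 interferon-stimulated genes measured, 17 were higher and 2 lower in withdrawal than in control cells, 12 were higher and 3 lower in TGF-β than in control cells, and 11 were higher and 4 lower in withdrawal than in TGF-β cells. The medians were 0.19, 0.17 and -0.01. Scaling to poly-A controls gave medians of 0.05, -0.12 and 0.14, with 16 higher and 1 lower, 10 and 4, and 11 and 2. Scaling to hybridisation controls gave -0.19, 0.01 and -0.23, with 12 and 14, 11 and 3, and 7 and 17. Before scaling, the shares of all genes were 21.7% higher and 23.6% lower, 15.0% and 17.5%, and 21.8% and 22.1%. With poly-A scaling, all 18193 genes gave 1967 higher and 3730 lower, 818 and 5334, and 3506 and 1500. With hybridisation scaling they gave 1655 and 12634, 1319 and 4408, and 2146 and 7772, with medians of -0.42, -0.17 and -0.25. Parp14, a mono-ADP-ribosyltransferase, followed H2-K1, at 7.10 and 7.13 in withdrawal cells, 7.04 and 7.08 in TGF-β cells and 5.69 and 5.64 in control cells. Ifit2, which restrains viral RNA, and Ifitm3, which blocks viral entry, rose in 2 steps, with 1.00 and 0.82 under TGF-β and 1.72 and 2.09 after withdrawal. Trim25, a ubiquitin ligase of RNA sensing, went the other way under TGF-β, at -1.24.

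The class II pathway presents peptides from outside the cell and is normally restricted to antigen-presenting cells. Of its 10 measured genes, 0 were called higher in any of the 3 comparisons by limma (0 at an unadjusted p under 0.05). In withdrawal against control cells 2 were lower (9 when scaled to hybridisation controls), and in TGF-β against control cells 2 were lower (3 when so scaled). These genes stood at percentiles 1.43 to 43.5 of all genes, with 3 above the array median, so a rise in the dim ones could be missed. Leukocytes express class I genes strongly, so their markers are given beside these results. Of 18 leukocyte markers, 2 were higher and 2 lower in withdrawal than in control cells, 0 were higher and 1 lower in TGF-β than in control cells (0 and 2 unadjusted), and 2 were higher and 1 lower in withdrawal than in TGF-β cells. Scaling to hybridisation controls gave 1 and 15, 0 and 3, and 2 and 8. The shares of all genes before scaling were 21.7% higher and 23.6% lower, 15.0% and 17.5%, and 21.8% and 22.1%. With hybridisation scaling, all 18193 genes gave 1655 higher and 12634 lower, 1319 and 4408, and 2146 and 7772. The mean log2 level of the 18 was 5.89 to 5.91 in withdrawal cells, 5.82 to 5.83 in TGF-β cells and 5.91 to 5.96 in control cells. Ptprc, the common leukocyte antigen, read 3.84 and 3.82 in withdrawal cells, 4.05 and 3.93 in TGF-β cells and 3.79 and 3.93 in control cells, at percentile 8.72 of all genes. The markers higher in withdrawal than in control cells were Cd14, by 0.28 (-0.093 when scaled to the hybridisation controls), and Cd68, by 0.88. The same 2 markers were higher in withdrawal than in TGF-β cells, by 1.86 and 1.05. Tapbp, Tap2 and B2m also rose in that comparison. Cd14 read 11.48 and 11.54 in withdrawal cells, 9.66 and 9.64 in TGF-β cells and 11.22 and 11.24 in control cells. It was the 1 marker lower in TGF-β than in control cells, at -1.58. Cd68 read 6.55 and 6.71, 5.49 and 5.68, and 5.55 and 5.94 in the same order of groups. The part of either marker in the results for Tapbp, Tap2 and B2m was not tested. Of 12 mammary epithelial markers, 8 had a mean above the array median. In withdrawal against control cells 0 were higher and 6 lower (0 and 6 unadjusted). The counts were 0 and 5 for TGF-β against control and 2 and 4 for withdrawal against TGF-β. The mean of the list was 7.97 to 7.99 in withdrawal cells, 7.87 to 7.88 in TGF-β cells and 8.64 to 8.70 in control cells. That mean joins unlike courses. Krt7 averaged 5.53 in withdrawal cells, 9.71 in TGF-β cells and 10.22 in control cells, whereas Krt19 averaged 11.98, 9.05 and 12.86.

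**Figure D4:**
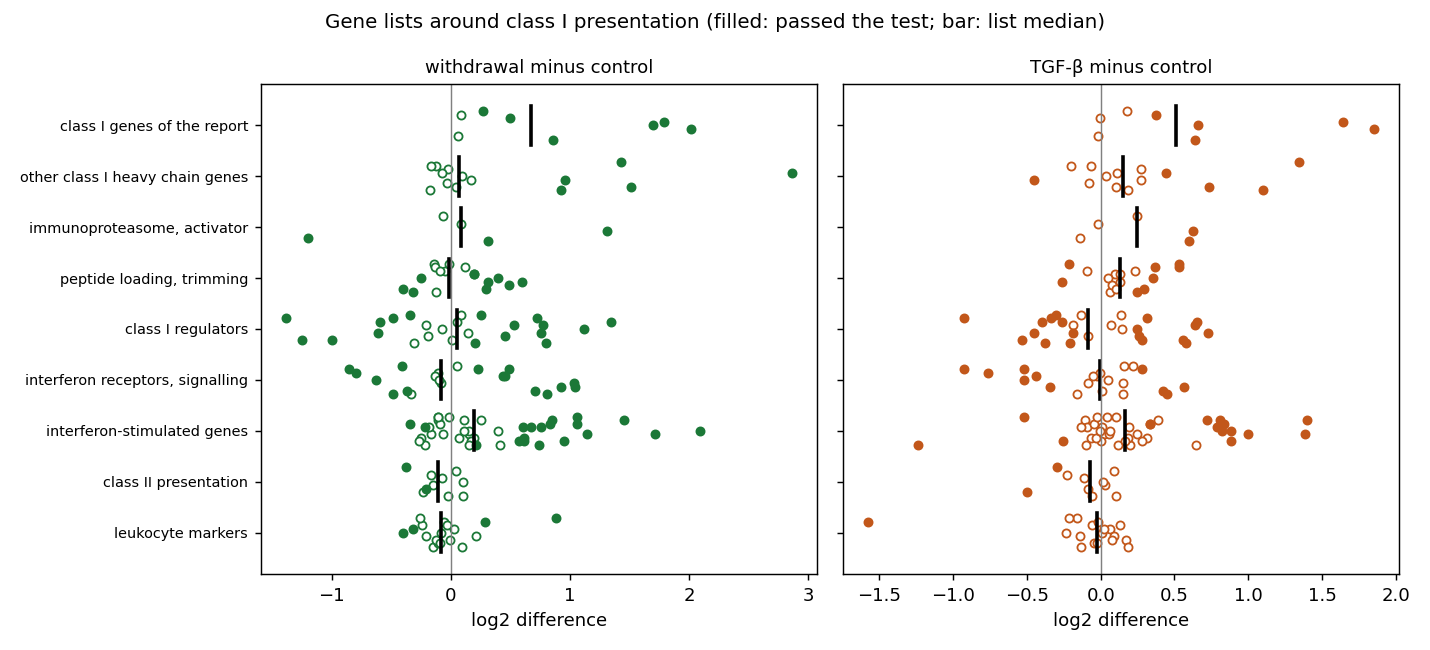
Log2 differences of the genes of 9 lists, for withdrawal minus control and TGF-β minus control; filled points passed limma's test at an adjusted p of 0.05 and the bar is the median of the list. The 8 class I genes have the highest medians of the lists plotted, 0.67 and 0.51, while regulators and interferon signalling genes spread to both sides of 0.

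Across the 6 arrays H2-K1 and H2-D1 correlated at Pearson's r of 0.999, H2-K1 and B2m at 0.984, H2-K1 and Tapbp at 0.835, H2-K1 and Tap2 at 0.529 and H2-K1 and Erap1 at 0.569. These are descriptions over 3 groups of 2 arrays, and probe sets of H2-K1 and H2-D1 can share probes. Profiles were also compared among 2473 genes that span at least 1 log2 unit over the arrays. The dimmest 40% of genes and the class I heavy chain genes, H2-D1 among them, were left out beforehand. Within that set, the profiles most like H2-K1 were those of Tspan6, Pla1a, Glipr1, Pdlim2 and Pdrg1, with r of 0.999 to 1.00. Pla1a, a secreted phospholipase, averaged 10.07 in withdrawal cells, 9.80 in TGF-β cells and 7.25 in control cells. The profiles most like B2m were those of Nrp2, Vdr, Lpar1, Mmp14 and Cela1. Vdr, the vitamin D receptor, averaged 8.36 in withdrawal cells, 7.88 in TGF-β cells and 6.33 in control cells. With 6 arrays, a high r says only that the 3 group means are spaced alike.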

How the data were processed

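Expression was measured in 6 samples of NMuMG cells, 2 in each of 3 groups taken from the titles and treatments. Total RNA with added poly-A control RNAs was labelled with a 3' IVT kit, per the labels' protocols. Per the submitters' processing notes RMA was used, which corrects background, quantile normalises and summarises probes, and the deposited unit is log2 expression of each probe set; the RMA software is not given in the sources used. The table has 45101 probe sets, of which 64 controls were left out, 34945 had 1 gene symbol in the platform annotation, 932 several and 9160 none. Only probe sets with 1 symbol were used, and 5 sets that name H2-K1, H2-D1 or H2-T23 together with other genes were left out.

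Each of the 18193 genes was represented by its probe set with the highest mean over the 6 arrays. A linear model with the 3 groups was fitted with lmFit and eBayes of limma 3.58.1 in R 4.3.3 to the 6 arrays (3 residual and 2.86 prior degrees of freedom), with two-sided tests, Benjamini-Hochberg adjustment over all genes and a threshold of 0.05. The 25 probe sets were fitted in the same way among all probe sets. The fit was tested on simulated data with 200 changed genes. Tables and figures used Python 3.11.15, pandas 2.3.3 and matplotlib 3.10.9. The genes and the lists around them were chosen with earlier results of these data known. Genes outside the 8 were named from the lists, up to 5 per list and comparison, by the size of the change among those called without overlap, plus regulators, proteasome and loading genes and defining markers. The 16 alternatives were 4 normalisations, a filter on dim genes, the mean of probe sets, leaving out marked probe sets, an intensity trend, a replicate block, fits to the 2 groups compared and leaving out each array. Without detection calls, dim genes cannot be told from background. Gene and promoter names follow RefSeq on GRCm38.p6, and promoter sequences are from RefSeq.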

Additional observations from a re-analysis of the deposited data

How the results depend on the processing

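The 8 genes were tested under 16 alternatives in 3 comparisons. Of 372 values, 320 kept direction and call, 20 lost a call, 13 gained one and 19 changed sign. H2-K1, H2-D1, B2m and Tapbp stayed higher in withdrawal than in control cells under every alternative that measured them. For TGF-β against control, 5 genes higher became 2 with poly-A scaling and 3 without probe sets ending in x, s or a, a setting that removes all H2-K1, B2m and Tap2 sets; leaving out 1 array gave 4 to 5 higher and 0 to 0 lower. For withdrawal against TGF-β, 3 higher became 5 with cyclic loess and 5 with the intensity trend, 1 with hybridisation scaling and 1 without marked sets, and leaving out 1 array gave 2 to 3; 0 lower became 1 (Erap1, or H2-D1 without marked sets) with repeated quantile normalisation, hybridisation scaling, the filter on the dimmest 40%, no marked sets or the trend, and 0 to 1 when 1 array was left out. For withdrawal against control, 6 higher became 3 without marked sets, and leaving out 1 array gave 5 to 6; 0 lower became 2, Nlrc5 and Erap1, with hybridisation scaling. Leaving out marked sets keeps only 10 of the 25 probe sets, so its counts of calls are out of 10. Of the 25, 17 called under TGF-β became 10 with poly-A scaling, and 5 of the 10 unmarked sets were called. For withdrawal against TGF-β, 6 called became 3 with poly-A scaling and 10 with the trend, and 3 of the 10 unmarked sets were called. For withdrawal against control 19 were called, and 5 of the 10 unmarked sets.

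Values that changed sign under poly-A scaling were, for TGF-β against control, Tap1 at -0.11, Pdia3 at -0.045, Relb at -0.043, Rfx5 at -0.030 and Tnfaip3 at -0.0058, and, for withdrawal against control, Nlrc5 at -0.080, Erap1 at -0.053 and Psmb9 at -0.051. Under hybridisation scaling they were, for withdrawal against TGF-β, H2-K1 at -0.056, H2-D1 at -0.069, B2m at -0.0011, Tap1 at -0.13, Nlrc5 at -0.14 and Rfx5 at -0.021, and, for withdrawal against control, Tap1 at -0.10, Nlrc5 at -0.32, Erap1 at -0.29, Psmb10 at -0.066, Psmb9 at -0.29, Canx at -0.19, Tapbpl at -0.083 and Cd14 at -0.093. Without marked probe sets, H2-D1 was -0.31 for withdrawal against TGF-β and Canx -0.042 for withdrawal against control, and the mean of probe sets gave Psmb8 0.034 there. Leaving out 1 array also changed signs: Tap2 ranged from -0.085 to 0.071 and Nlrc5 from -0.17 to 0.14 for TGF-β against control, Nlrc5 from -0.021 to 0.17 for withdrawal against TGF-β, and for withdrawal against control Nlrc5 ranged from -0.090 to 0.21, Erap1 from -0.0073 to 0.18 and Psmb8 from -0.22 to 0.10. The cause was not tested. Both spike scalings rest on few control probe sets, 24 and 18, and each shifts all genes of an array alike: calls under TGF-β over all genes were 2726 higher and 3175 lower, against 818 and 5334 with poly-A scaling, and for withdrawal against control hybridisation scaling gave 1655 higher and 12634 lower.

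Between groups, the deviations of arrays with the same replicate number correlated at -0.0038, 0.0067 and -0.016. The labels do not say what a replicate number shares, and these values cannot settle whether such arrays were handled together. With the number as a block, the count under TGF-β was 4 higher, the call of Erap1 alone being lost among the 8 genes (adjusted p = 0.0549); of the other genes named, the calls of Relb under TGF-β (0.0638), Rfx5 for withdrawal against TGF-β (0.0506) and Canx for withdrawal against control (0.0546) were lost.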
